A study of Mus musculus with 15 samples.

Results

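Protein phosphatase 2A (PP2A) is a major serine and threonine phosphatase of animal cells, and 10 genes for its subunits were followed here among the 49315 gene IDs of the count tables. The 10 were taken by symbol: the catalytic genes Ppp2ca and Ppp2cb, the scaffold genes Ppp2r1a and Ppp2r1b, the B55 regulatory genes Ppp2r2a, Ppp2r2b and Ppp2r2d, the B56 regulatory genes Ppp2r5a and Ppp2r5c, and the B'' regulatory gene Ppp2r3a. The set was chosen by the measured differences of Ppp2ca and Ppp2r2b between the groups, so values of these 2 genes are given as a description with no test. The other 8 were read from tests fitted over all genes. The cells were primary myoblasts, the dividing precursors of skeletal muscle fibres, of wild-type C57BL/6J mice, from 5 lines. The titles carry replicate numbers (1, 2, 3, 4 and 7) and no line name, and libraries with the same number are taken here as the same line because they deviated from their group means together. This was weakest for the siSirt1 library of number 1, whose line is the least certain. Each line received, by RNAiMax lipid transfection, a small interfering RNA against Lmod1 (siLmod1), one against Sirt1 (siSirt1) or a control RNA (siCtrl), and all were then put through 1 day of differentiation. Lmod1 encodes leiomodin 1, which nucleates actin filaments, and Sirt1 encodes an NAD-dependent deacetylase. The question behind the libraries was which genes act downstream in a rescue seen when both were knocked down, and no double knockdown library was analysed here. All libraries were polyadenylated RNA read on 150-base reads from a kit that keeps no strand, and each group held 5 libraries, 1 for each line.

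PP2A works as an assembly of 3 parts. A catalytic C subunit removes the phosphate, a scaffold A subunit of stacked repeats holds it, and 1 of many interchangeable B subunits decides where the enzyme goes and which substrates it meets. B55 subunits are known for the exit from mitosis and for acting on AKT and MAP kinase signalling, B56 subunits for chromosome attachment and for control of MYC and beta-catenin, and striatins, a further class of B subunit, for tethering PP2A to kinases of the Hippo pathway. In muscle cells the enzyme opposes kinases of growth signalling, and it acts on the histone deacetylase HDAC4, a brake on muscle genes.

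Ppp2ca is one of the genes whose differences chose the set, and its near copy Ppp2cb is the gene with which its reads could be mixed, so the start of its coding part is shown. The stretch is the first 120 coding bases of transcript Ppp2ca-201 (GENCODE M21, build mm10), 5′ to 3′, with the start codon in capitals, and 23 of these bases differ in Ppp2cb.
Ppp2ca: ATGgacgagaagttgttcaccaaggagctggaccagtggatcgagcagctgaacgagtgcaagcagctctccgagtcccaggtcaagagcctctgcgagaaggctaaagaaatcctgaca
Over the whole coding part of 927 bases, 170 bases differed between the catalytic genes, and 143 of these (84.1%) lay at the third position of a codon. Of 309 codons, 301 (97.4%) gave the same residue in both genes, so the proteins are near copies while the messenger RNAs are not. The longest identical run was 25 bases. No identical run reached the 150 bases of a read, so a whole read within the coding part differs between the genes. The other members of a class were further apart. Coding identity was 76.7% for the scaffold pair, 75.4% for Ppp2r2a and Ppp2r2b, 77.3% for Ppp2r2a and Ppp2r2d, 75% for Ppp2r2b and Ppp2r2d and 65.8% for Ppp2r5a and Ppp2r5c.

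The libraries held 21004908 to 33601761 counts. Lmod1 stood lower in siLmod1 than in siCtrl in 5 of 5 lines (log2 fold change -3.13, adjusted p = 0.069 in edgeR without the line as a term, or block, and 2.8e-06 with it), and Sirt1 stood lower in siSirt1 in 5 of 5 lines (-2.06, adjusted p = 0.074 and 0.0027). Each knockdown also touched the other target: with the block Lmod1 fell in siSirt1 against siCtrl by 0.96 in 5 of 5 lines (adjusted p = 0.027, and 0.72 without it), and Sirt1 rose in siLmod1 against siCtrl by 0.54 in 5 of 5 lines (adjusted p = 0.00014, and 0.51 without it). Libraries were led by their line: on the first principal component (42.3% of variance) the 3 libraries of line 4 stood at 85 to 86.2, away from the rest, and on the second (16.1%) the siSirt1 library of line 7 stood at 72.9. Muscle markers (10 of 10 detected, among them Myod1, Myog and Des) summed to between 11826 and 53187 TPM (a unit explained with the levels) in every library. With the line as a term, 4 of these 10 fell in siLmod1 against siCtrl, 3 fell in siSirt1 against siCtrl, and 1 rose and 3 fell in siSirt1 against siLmod1, in fits that called 29.5%, 7.07% and 15.9% of all genes. Without the block 0 of the 10 were called in edgeR in each comparison (1, 2 and 2 had an unadjusted p under 0.05, and DESeq2 called 0, 0 and 2). Of the smooth muscle and pericyte markers, the defining Myh11 and Cnn1 were under 1 TPM in every library. The 8 together reached 2459 to 10513 TPM, nearly all of it Acta2 (means of 7918, 7356 and 5051 TPM in siCtrl, siLmod1 and siSirt1). With the block 4, 2 and 1 of the 7 tested fell and 0, 0 and 1 rose in the 3 comparisons. Those fits called 16.5%, 4.35% and 8.43% of all genes lower. Without the block 0 of those 7 were called in edgeR (1, 0 and 1 had an unadjusted p under 0.05, and DESeq2 called 0, 0 and 1). Fibroblast markers summed to 3.03 to 19.1 TPM, glial markers to 5.77 to 10.4 and macrophage markers to 2.99 to 8.77. Endothelial markers summed to 0.551 to 62.5 TPM, with the high values in line 4. The highest sum was nearly all Tek, which reached 62.3 TPM in siCtrl, while Pecam1, Kdr and Tie1 stayed under 1 TPM in every library. In bulk RNA, fewer cells of a type and less RNA per cell cannot be told apart.

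Levels between genes are compared in TPM, in which a count is divided by transcript length and scaled to 1 fixed total for all libraries. In siCtrl the scaffold gene Ppp2r1a was the most abundant subunit at 265 ± 25.1 TPM (mean ± SD, n = 5 libraries, as for all means below), followed by Ppp2ca at 114 ± 12.3 and Ppp2cb at 93.1 ± 10.9. Next came Ppp2r5c at 67.5 ± 4.69 and Ppp2r2a at 56.4 ± 16.8. The low group was Ppp2r2d at 21.3 ± 1.16, Ppp2r3a at 19.8 ± 1.89, Ppp2r5a at 15.9 ± 6.99 and Ppp2r1b at 12.5 ± 2.86, and Ppp2r2b was last at 1.69 ± 0.906 TPM. Library ranges overlapped between Ppp2ca and Ppp2cb, between Ppp2r5c and Ppp2r2a, and between each neighbouring pair from Ppp2r2d down to Ppp2r1b. In siLmod1 the order of the catalytic genes was the other way round, with Ppp2cb above Ppp2ca in 5 of 5 libraries and no overlap of ranges. That order depends on the division by length, since without it Ppp2ca took a mean of 72.1% of the pair in siLmod1. In siSirt1 the catalytic genes overlapped again, with Ppp2cb above Ppp2ca in 2 of 5 libraries. Ppp2r1a was the first and Ppp2r2b the last of the 10 in each group, with no overlap with the neighbouring gene. TPM of Ppp2r2a and Ppp2r5c rests on transcript lengths 0.75 and 0.51 times the full exon length of M21, which bears on their place in the order and not on comparisons between groups.

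**Figure D1:**
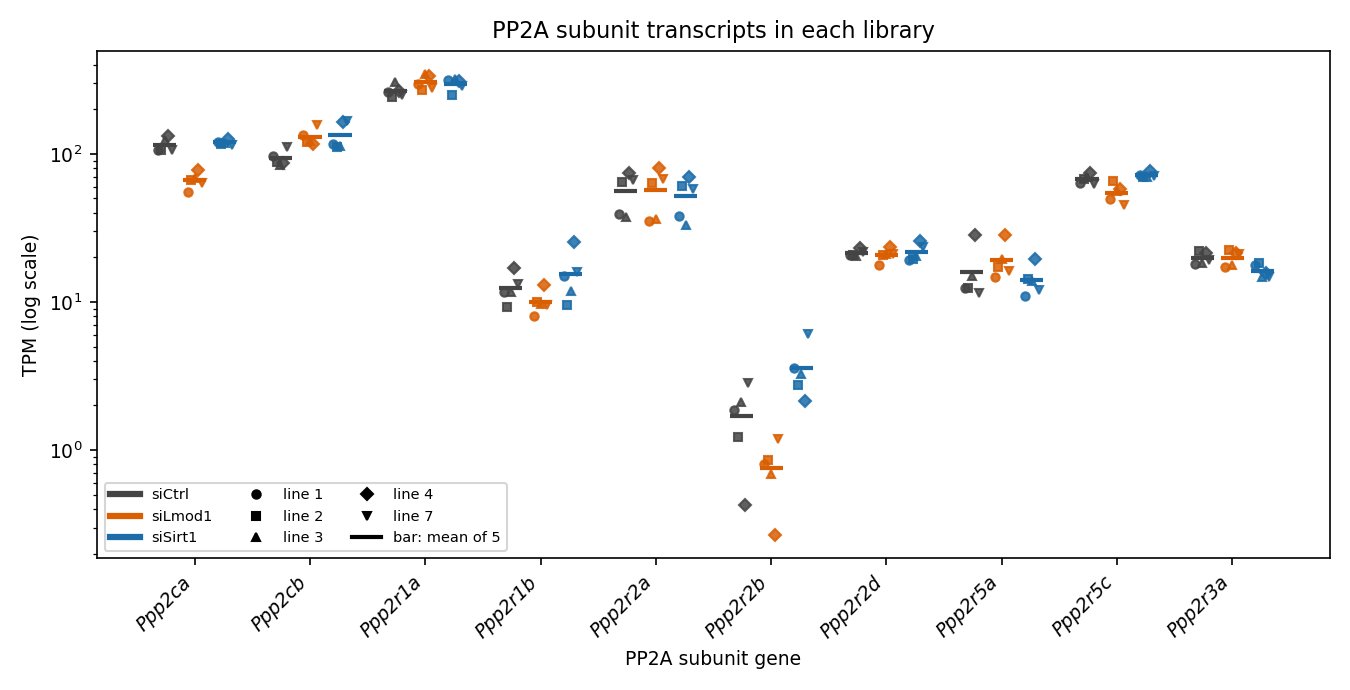
TPM (log axis) of the 10 PP2A subunit genes in each of the 15 libraries, with colour for the group, marker shape for the primary line and a bar for the mean of 5 libraries. Ppp2ca is lower in siLmod1 than in both other groups, and Ppp2r2b is low in every library and lowest in line 4 within each group.

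Fold changes below are log2 differences from edgeR quasi-likelihood fits on counts scaled by TMM (a scaling that sets aside genes with extreme differences), each with its standard error (SE). P-values are adjusted by Benjamini-Hochberg over all genes tested, and a gene is called at an adjusted p under 0.05. Each comparison was fitted by group alone and then with the line as a block, a term that compares libraries within a line. Without the block, 0 of the 8 tested members were called in edgeR in each comparison. The members at an unadjusted p under 0.05 numbered 2 for siLmod1 against siCtrl, 2 for siSirt1 against siCtrl and 3 for siSirt1 against siLmod1, and DESeq2 without the block also called 0. Over all genes those fits called 0.113% (17 of 15022), 0.127% (19 of 14912) and 1.53% (229 of 14998).

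With the block, 5 of the 8 were called for siLmod1 against siCtrl, 3 higher and 2 lower, where 29.5% of all genes were called, 12.9% higher and 16.5% lower. For siSirt1 against siCtrl 1 of the 8 was called, lower, against 7.07% of all genes (2.72% higher, 4.35% lower). For siSirt1 against siLmod1 3 of the 8 were called, 1 higher and 2 lower, against 15.9% of all genes (7.43% higher, 8.43% lower). Leaving out any 1 line brought these counts to 2 to 4, to 0 and to 1 to 2. The median log2 fold change of the 8 with the block was -0.05, -0.09 and -0.11 in the same order, and of all genes -0.01, 0.01 and 0.01. Scaling by library totals in place of TMM shifted the median of all genes upward by 0.11 in siSirt1 against siCtrl (without the block), the part of each difference there that depends on the scaling. It also turned the split of all blocked calls from 1944 higher and 2486 lower to 2741 and 1978 in siLmod1 against siCtrl, from 406 and 648 to 797 and 441 in siSirt1 against siCtrl, and from 1115 and 1264 to 1409 and 904 in siSirt1 against siLmod1.

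**Figure D2:**
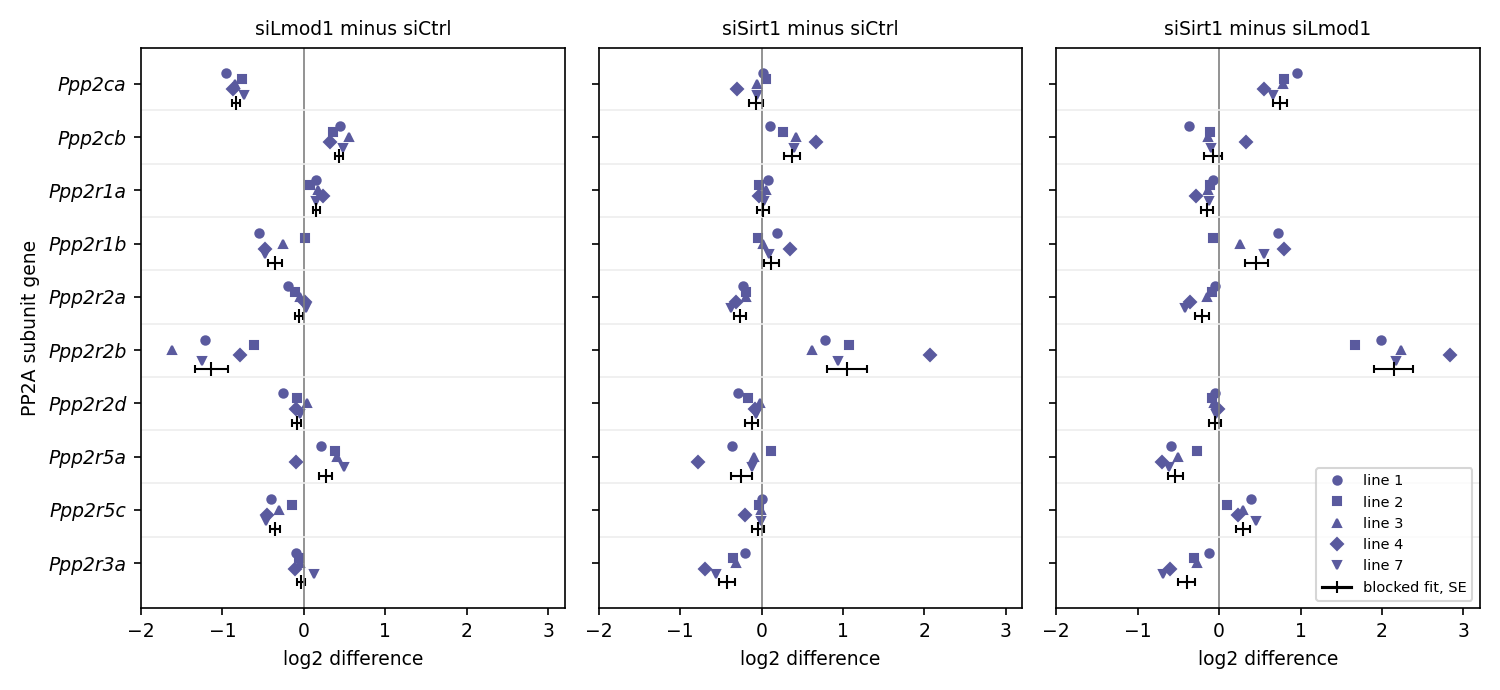
Log2 difference of TMM-scaled counts divided by library size (CPM) for the 10 subunit genes in each of the 5 primary lines (markers), with the estimate of the fit with the line as a block and its SE (black bar) below them, for 3 comparisons. In siLmod1 against siCtrl the 5 lines of Ppp2ca lie between -0.96 and -0.74 and those of Ppp2cb between 0.31 and 0.55, and in siSirt1 against siLmod1 the 5 lines of Ppp2r2b lie between 1.67 and 2.84.

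Ppp2ca encodes the alpha isoform of the catalytic subunit (ENSMUSG00000020349, chromosome 11, 52098681 to 52127778, plus strand). In lines 1, 2, 3, 4 and 7 its level was 105, 106, 123, 132 and 106 TPM in siCtrl. It was 55.3, 66.5, 68.3, 77.4 and 63.7 TPM in siLmod1, and 121, 116, 119, 127 and 115 TPM in siSirt1. All 5 siLmod1 libraries lay below all 10 others, with line 1 the lowest and line 4 the highest. Against siCtrl the log2 difference in siLmod1 was -0.83 (SE 0.13, or 0.05 with the block), a ratio of 0.561, and it was lower in 5 of 5 lines. Between siSirt1 and siCtrl it was -0.08 (SE 0.11), with 2 lines higher and 3 lower, and its sign turned with the scaling (-0.09 to 0.04). From siLmod1 to siSirt1 it was 0.74 (SE 0.11) and higher in 5 of 5 lines. Groups that did not overlap in TMM-scaled CPM, lower in siLmod1 than in siCtrl, were seen for 1.39% of all genes, and Ppp2ca was the single member among them. Because Ppp2ca was chosen for its differences, that share is background and no test of it. An antisense transcript, 9430098F02Rik, covers 39.9% of the exon bases of Ppp2ca and held a mean of 0.47 counts. Without strand the reads of that stretch cannot be told apart, and how they were counted is not given.

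Ppp2cb, the beta isoform (ENSMUSG00000009630, chromosome 8, 33599625 to 33619441, plus strand), ran the other way in siLmod1. In siCtrl it stood at 96.2, 87.5, 83.6, 87.3 and 111 TPM in lines 1, 2, 3, 4 and 7. In siLmod1 it stood at 134, 119, 122, 117 and 156 TPM, and in siSirt1 at 116, 111, 113, 164 and 166 TPM. All siLmod1 libraries lay above all siCtrl libraries, and in siSirt1 lines 4 and 7 were far above lines 1, 2 and 3. Against siCtrl, Ppp2cb in siLmod1 rose by 0.43 (SE 0.05) with the block, higher in 5 of 5 lines (edgeR adjusted p = 0.00035), while without the block the same difference had an adjusted p of 0.29. The blocked call held without any 1 line, over all 15 libraries in 1 fit, in DESeq2 and with library totals. Groups not overlapping in TMM-scaled CPM, higher in siLmod1, were seen for 1.29% of all genes, and Ppp2cb was the single member among them.

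For Ppp2cb, siSirt1 against siCtrl gave a log2 difference of 0.38 (SE 0.15, edgeR adjusted p = 0.44), and 0.37 (SE 0.10, adjusted p = 0.06) with the block, higher in 5 of 5 lines. The lines ran from 0.10 in line 1 to 0.67 in line 4. With the block the adjusted p was 0.038 with library totals, 0.031 in DESeq2 and 0.015 over all 15 libraries, so the call turned on the setting. In TPM all siSirt1 libraries lay above the highest of siCtrl, the nearest pair both at 111 TPM, while in TMM-scaled CPM the groups overlapped. No member was separated in TMM-scaled CPM in this comparison, against 2.98% of all genes in either direction. Between siSirt1 and siLmod1 the difference of Ppp2cb was -0.06 (SE 0.15, adjusted p = 0.89).

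Since the catalytic genes moved apart in siLmod1, the share of Ppp2ca in their summed TPM is given as a description that includes the gene used for the choice. It was 55.1 ± 4.83% in siCtrl, 34 ± 4.71% in siLmod1 and 47.6 ± 4.92% in siSirt1. By line it was 52.3, 54.7, 59.6, 60.1 and 48.8% in siCtrl, 29.3, 35.8, 35.8, 39.9 and 29% in siLmod1, and 50.9, 51, 51.4, 43.5 and 41% in siSirt1. Every siLmod1 library was below every siSirt1 library, and lines 4 and 7 of siSirt1 were below lines 1, 2 and 3. In CPM, which does not divide by length, the longer Ppp2ca transcript took 86.1, 72.1 and 82.1%. The summed level of both genes was 207 ± 10.6 TPM in siCtrl, 196 ± 13.6 in siLmod1 and 254 ± 30.2 in siSirt1. The sums of siCtrl and siLmod1 overlapped (193 to 219 and 186 to 219.5 TPM), and those of siSirt1 (227 to 291 TPM) lay above both. In CPM it was the siLmod1 sums (196 to 245) that lay below both other groups, while siSirt1 (322 to 378.5) and siCtrl (291.5 to 365) overlapped, so which group stood apart depended on the division by length.

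**Figure D3:**
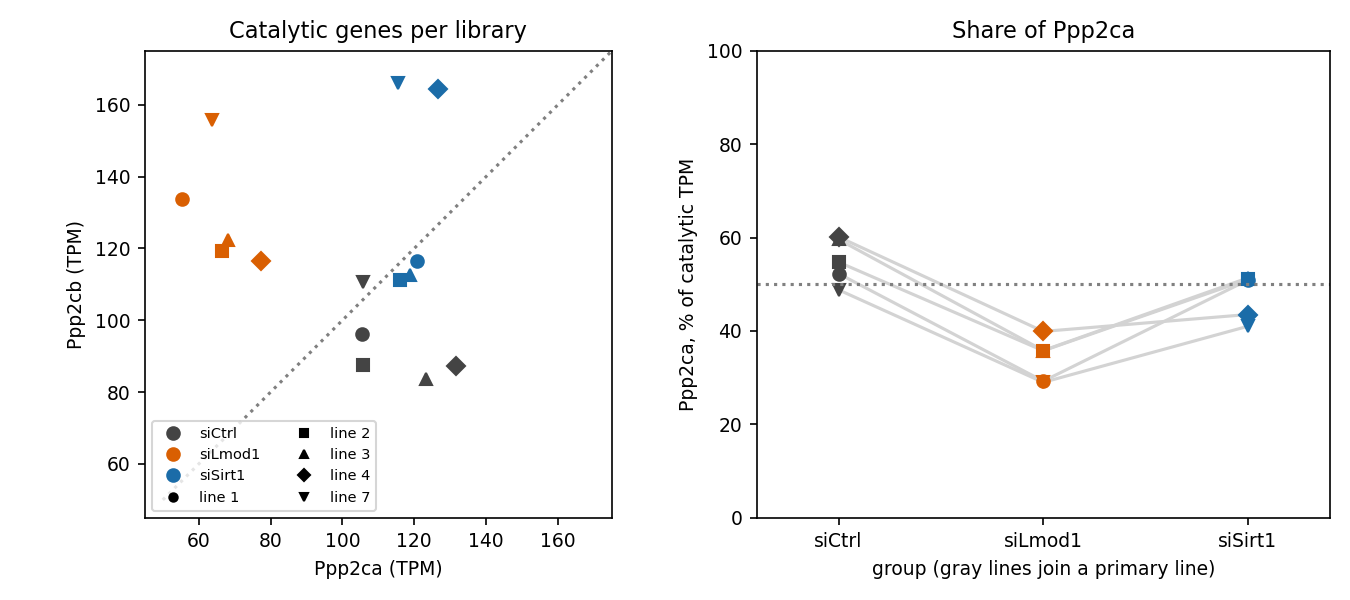
Left, Ppp2cb against Ppp2ca in TPM in each library, with a dotted line where they are equal; right, Ppp2ca as a percentage of the summed TPM of both genes by group, with grey lines joining the libraries of 1 primary line. All siLmod1 libraries lie above the dotted line on the left, and their share of Ppp2ca lies between 29 and 39.9% on the right.

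The scaffold was almost all Ppp2r1a, the alpha isoform (ENSMUSG00000007564, chromosome 17, 20945311 to 20965916, plus strand), which made up 95.5 ± 0.99% of scaffold TPM in siCtrl, 96.8 ± 0.483% in siLmod1 and 95.1 ± 1.66% in siSirt1. Its level in lines 1, 2, 3, 4 and 7 was 262, 242, 307, 267 and 249 TPM in siCtrl, 295, 270, 347, 336 and 276 in siLmod1, and 313, 251, 319, 308 and 289 in siSirt1. The groups overlapped, and line 2 was the lowest in each. Ppp2r1a in siLmod1 was higher than in siCtrl in 5 of 5 lines by 0.16 (SE 0.09, edgeR adjusted p = 0.72), and with the block by 0.15 (SE 0.05, adjusted p = 0.029). That call ended without line 1, 3, 4 or 7 (adjusted p = 0.051 to 0.077) and over all 15 libraries (0.093). From siCtrl to siSirt1 its difference was 0.02 (SE 0.09, adjusted p = 0.97), with 3 lines higher and 2 lower.

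Ppp2r1b, the beta scaffold (ENSMUSG00000032058, chromosome 9, 50845301 to 50894229, plus strand), was at 11.6, 9.21, 11.7, 17 and 13.1 TPM in siCtrl. It was at 8.07, 9.92, 9.76, 13.1 and 9.46 TPM in siLmod1, and at 14.9, 9.47, 11.8, 25.5 and 15.9 TPM in siSirt1. Line 4 was the highest in each group and all groups overlapped. The log2 difference of siLmod1 from siCtrl was -0.36 (SE 0.20, edgeR adjusted p = 0.67), and -0.35 (SE 0.09, adjusted p = 0.013) with the block, lower in 4 of 5 lines, with line 2 the exception at 0.02. The blocked call ended without line 1 (adjusted p = 0.064) and over all 15 libraries (0.089). In siSirt1 against siLmod1 it was higher in 4 of 5 lines by 0.50 (SE 0.25, adjusted p = 0.35), and by 0.46 (SE 0.14, adjusted p = 0.063) with the block. Ppp2r1b shares 1429 exon bases (22.2%) with the antisense gene Sik2, and without strand the reads of that stretch cannot be told apart.

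Among B55 genes, Ppp2r2a, the alpha isoform (ENSMUSG00000022052, chromosome 14, 67014056 to 67072444, minus strand), varied by line far more than by group. Its TPM in lines 1, 2, 3, 4 and 7 was 39.5, 64.9, 37.4, 73.9 and 66.5 in siCtrl, 35.1, 63.7, 36.1, 80 and 67.9 in siLmod1, and 38.1, 60.3, 32.9, 70 and 58.2 in siSirt1. Lines 1 and 3 were the 2 lowest in each group and line 4 the highest. Between siLmod1 and siCtrl the difference was -0.05 (SE 0.32, edgeR adjusted p = 0.99), and -0.06 (SE 0.05, adjusted p = 0.38) with the block, and its sign turned with library totals without the block (0.01). Each line had less in siSirt1 than in siCtrl, with a difference of -0.27 (SE 0.29, adjusted p = 0.84), and of -0.26 (SE 0.07, adjusted p = 0.076) with the block, which missed the threshold.

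Ppp2r2d, the delta isoform (ENSMUSG00000041769, chromosome 7, 138846079 to 138883057, plus strand), was the steadiest of the B55 genes across lines. It ranged from 20.4 to 23.2 TPM in siCtrl, while siLmod1 held 17.6 to 23.3 and siSirt1 19.1 to 25.9, with line 4 the highest in each group. Its log2 differences were -0.09 (SE 0.11) in siLmod1 against siCtrl, -0.12 (SE 0.12) in siSirt1 against siCtrl and -0.05 (SE 0.13) in siSirt1 against siLmod1, the last turning sign with library totals (0.03). The edgeR adjusted p-values were 0.91, 0.83 and 0.91, and with the block 0.27, 0.38 and 0.7. It shares 3.3% of its exon bases with the antisense gene Mapk1ip1.

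Ppp2r2b encodes the beta isoform of B55 (ENSMUSG00000024500), a subunit known chiefly from neurons. It had 62, 46, 86, 17 and 107 counts in lines 1, 2, 3, 4 and 7 of siCtrl, 33, 32, 27, 10 and 40 in siLmod1, and 121, 86, 104, 73 and 157 in siSirt1. In TPM these were 1.85, 1.23, 2.12, 0.429 and 2.81 in siCtrl, 0.811, 0.859, 0.689, 0.267 and 1.19 in siLmod1, and 3.6, 2.73, 3.27, 2.13 and 6.12 in siSirt1. Line 4 was the lowest and line 7 the highest in every group. The lowest library had 10 counts, against the 3 counts taken as the limit of detection.

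Within each line Ppp2r2b was lowest in siLmod1 and highest in siSirt1. Against siCtrl the log2 difference in siLmod1 was -1.17 (SE 0.49, or -1.14 with SE 0.21 with the block), with the lines from -1.62 to -0.61. In siSirt1 it was 0.95 (SE 0.44, or 1.05 with SE 0.25), with 4 lines between 0.62 and 1.07 and line 4, which had the fewest counts, at 2.07. Without line 4 the blocked value was 0.84. Both knockdown groups overlapped siCtrl in TPM, and they did not overlap each other. In siSirt1 against siLmod1 the difference was 2.10 (SE 0.40), a ratio of 4.29, with the lines from 1.67 to 2.84. Groups not overlapping in TMM-scaled CPM, higher in siSirt1 than in siLmod1, were seen for 2.54% of all genes, and Ppp2ca and Ppp2r2b were the members among them. Both were chosen for their differences, so that share is background and no test of them. In TPM Ppp2r5c was separated as well, while in TMM-scaled CPM its groups overlapped. The share above is for TMM-scaled CPM, and none was taken for TPM. Of the summed TPM of the 4 B55 genes, Ppp2r2c included, Ppp2r2b made up 2.26 ± 1.29% in siCtrl, 1.04 ± 0.475% in siLmod1 and 4.73 ± 1.96% in siSirt1.

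Of the neuron markers, Tubb3 and Stmn2 had the direction of Ppp2r2b in all 3 comparisons, and their part in the result was not tested. With the block Tubb3 was called in all 3 and Stmn2 in 1. The 7 markers, all detected above 0, summed to 27.6 to 44.7 TPM in siCtrl, while siLmod1 held 19.7 to 34 and siSirt1 50.3 to 77.3. Most of this was Tubb3, a tubulin of neurons that other cells also make, at 24.2 ± 10.8, 16.8 ± 7.17 and 51.8 ± 12.2 TPM. In edgeR with the block Tubb3 fell in siLmod1 against siCtrl (-0.57, SE 0.10, adjusted p = 0.0019), rose in siSirt1 against siCtrl (1.03, SE 0.22, adjusted p = 0.034) and rose in siSirt1 against siLmod1 (1.58, SE 0.23, adjusted p = 0.0059). Without the block these adjusted p-values were 0.75, 0.36 and 0.046. Stmn2, a microtubule regulator of growing neurites, rose in siSirt1 against siLmod1 with the block (1.37, SE 0.35, adjusted p = 0.036, and 0.17 without it). Against siCtrl its blocked differences were -0.63 in siLmod1 and 0.77 in siSirt1 (edgeR adjusted p = 0.086 and 0.16). Of the 7, 1 fell in siLmod1 against siCtrl, 1 rose in siSirt1 against siCtrl and 2 rose in siSirt1 against siLmod1 with the block, where 16.5% of all genes fell, 2.72% rose and 7.43% rose. The median of the 7 in those fits was -0.19, 0.02 and 0.14. In siSirt1 against siCtrl Map2 was at -0.27 and Snap25 at -0.22 (adjusted p = 0.43 and 0.6), on the other side from Tubb3. The nuclear marker of mature neurons, Rbfox3, was at 1.09 ± 0.296, 0.97 ± 0.137 and 1.07 ± 0.188 TPM, level across the groups within its spread.

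The B56 gene Ppp2r5c, the gamma isoform (ENSMUSG00000017843, chromosome 12, 110447120 to 110583062, plus strand), was lower in siLmod1. In lines 1, 2, 3, 4 and 7 it was at 63.8, 67.5, 69.6, 74.2 and 62.5 TPM in siCtrl, 49.2, 65, 56.2, 58.2 and 45.3 in siLmod1, and 72.2, 69.7, 69.6, 76.3 and 70.9 in siSirt1. Line 2 of siLmod1 reached into the siCtrl range, the other 4 lines did not, and siSirt1 libraries lay close together. Relative to siCtrl, Ppp2r5c in siLmod1 fell by 0.35 (SE 0.06) with the block in 5 of 5 lines (edgeR adjusted p = 0.0014), and without the block the same difference had an adjusted p of 0.41. The blocked call held without any 1 line and in the other blocked fits (adjusted p = 1.3e-05 to 0.012). For siSirt1 against siCtrl the difference was -0.05 (SE 0.10, adjusted p = 0.92), and its sign turned with library totals (0.06). In siSirt1 against siLmod1 it was higher in 5 of 5 lines by 0.28 (SE 0.12, adjusted p = 0.27), and with the block by 0.29 (SE 0.08, adjusted p = 0.048), a call that ended without any 1 line (0.055 to 0.14).

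Ppp2r5a, the alpha isoform of B56 (ENSMUSG00000026626, chromosome 1, 191351975 to 191403272, minus strand), was at 12.5, 12.5, 14.9, 28.2 and 11.5 TPM in siCtrl, with line 4 far above the others. It was at 14.7, 17.3, 19.6, 28.2 and 16.1 TPM in siLmod1, and at 10.9, 14.4, 13.9, 19.4 and 12 TPM in siSirt1. Line 4 was again the highest in both. Its log2 difference of siLmod1 from siCtrl was 0.21 (SE 0.30, edgeR adjusted p = 0.92), and 0.27 (SE 0.08, adjusted p = 0.029) with the block, higher in 4 of 5 lines with line 4 at -0.10. The blocked value without line 4 was 0.38 (adjusted p = 0.0014), and the call ended without line 1, 2, 3 or 7 (0.064 to 0.1) and over all 15 libraries (0.14). For siSirt1 against siCtrl it was -0.32 (SE 0.29, adjusted p = 0.8), and it was 0.04 without the siCtrl library of line 4.

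Between the knockdowns Ppp2r5a was lower in siSirt1 than in siLmod1 in 5 of 5 lines, with a difference of -0.54 (SE 0.23, adjusted p = 0.26) without the block. With the block it fell by 0.54 (SE 0.09, edgeR adjusted p = 0.009), with the lines from -0.70 to -0.27. This call held without any 1 line and in the other blocked fits (adjusted p = 0.00018 to 0.04). The TPM ranges of both groups overlapped.

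Ppp2r3a, the B'' subunit also known as PR72 and PR130 (ENSMUSG00000043154, chromosome 9, 101105084 to 101251795, minus strand), is a calcium-binding regulatory subunit made in heart and skeletal muscle. In lines 1, 2, 3, 4 and 7 it was at 18, 22.1, 18.3, 21.5 and 19.1 TPM in siCtrl, 17.1, 22.6, 17.7, 21.4 and 20.9 in siLmod1, and 17.6, 18.3, 14.8, 15.7 and 14.8 in siSirt1. Lines 3, 4 and 7 of siSirt1 lay below every library of the other groups, and lines 1 and 2 within their range. siLmod1 differed from siCtrl by a log2 value of -0.04 (SE 0.14, edgeR adjusted p = 0.98), turning to 0.01 with library totals. In siSirt1 it was lower than in siCtrl in 5 of 5 lines, with a difference of -0.43 (SE 0.14, adjusted p = 0.33), and with the block it fell by 0.42 (SE 0.09, adjusted p = 0.036). That call ended without any 1 line (0.056 to 0.097) and with library totals (0.06). Against siLmod1 it was also lower in 5 of 5 lines, at -0.40 (SE 0.14, adjusted p = 0.19), and with the block at -0.40 (SE 0.10, adjusted p = 0.037). Without line 1 that adjusted p was 0.048, and without any other line it was 0.074 to 0.096. These comparisons share the siSirt1 libraries, and the pairing of the siSirt1 library of line 1 was the weakest of the set.

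Summed by class, B56 genes (Ppp2r5a to Ppp2r5e) reached 300.2 ± 13.8 TPM in siCtrl, 269 ± 26.2 in siLmod1 and 297 ± 16.2 in siSirt1, and the 2 scaffold genes 278 ± 25.6, 315 ± 35.6 and 312 ± 30.7. The 4 B55 genes summed to 80.7 ± 17.2, 79.3 ± 21.4 and 78.6 ± 17.6 TPM, below the B56 genes in every library. Ppp2r5c took 22.5 ± 1.2, 20.3 ± 1.77 and 24.2 ± 1.65% of the B56 sum, and Ppp2r5a took 5.28 ± 2.27, 7.15 ± 1.98 and 4.79 ± 1.19%. The largest B56 gene was not among the 10: Ppp2r5d was at 141 ± 13.1, 116 ± 15.7 and 132 ± 16.8 TPM. The 3 striatins summed to 220 ± 35.5, 177 ± 31.9 and 207 ± 40.8 TPM. The group ranges overlapped for each of these classes. Within lines, the siLmod1 sums against siCtrl were lower in 5 of 5 lines for B56 and for striatins, higher in 5 of 5 for the scaffold and lower in 4 of 5 for B55. The siSirt1 sums against siCtrl were higher in 5 of 5 lines for the scaffold, and lower in 4 of 5 for B56, 4 of 5 for B55 and 3 of 5 for striatins. These sums were not scaled by TMM and were not tested. Scaled by TMM, Ppp2r1a, almost all of the scaffold sum, was higher in siSirt1 than in siCtrl in 3 lines and lower in 2. The 5 of 5 for the scaffold in siSirt1 therefore depends on the scaling.

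**Figure D4:**
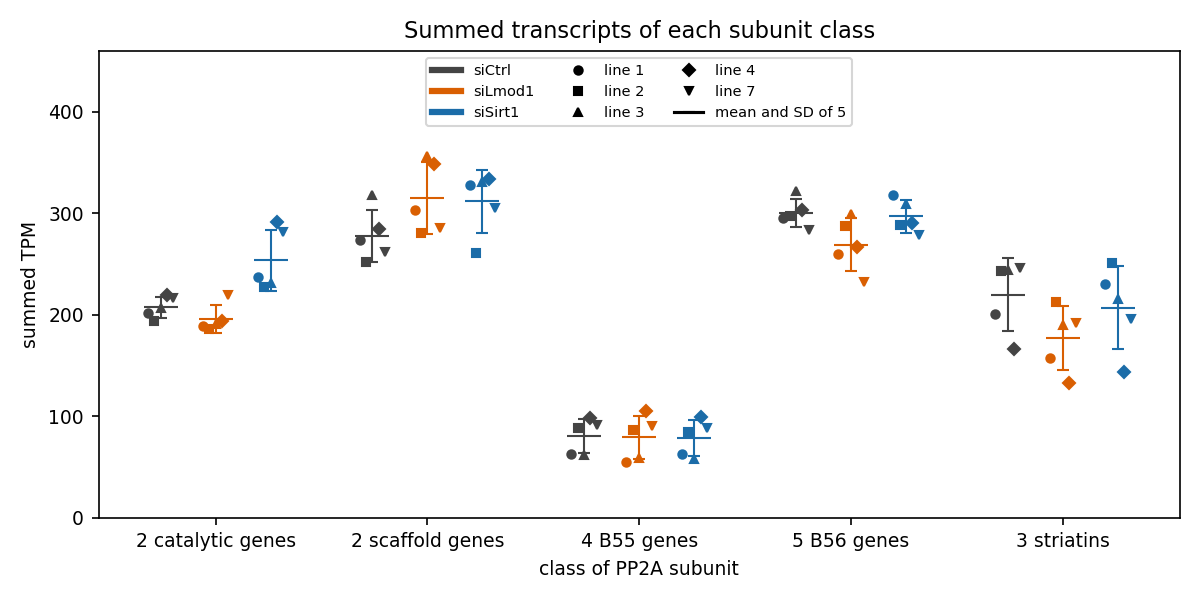
Summed TPM of the genes of each PP2A subunit class in the 15 libraries, with colour for the group, marker shape for the primary line, and bars for the mean and SD of 5 libraries. The catalytic sums of siSirt1 lie above those of both other groups (227 to 291 TPM), while for scaffold, B55, B56 and striatin sums the 3 groups overlap.

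Regulatory subunits outside the 10 numbered 6: Ppp2r2c, Ppp2r3c, Ppp2r3d, Ppp2r5b, Ppp2r5d and Ppp2r5e. In edgeR with the block, where 16.5% of all genes fell and 12.9% rose, 1 of the 6 fell in siLmod1 against siCtrl and 0 rose. It was Ppp2r5d, the delta isoform of B56, at -0.33 (SE 0.05, adjusted p = 0.00096, and 0.3 without the block), lower in 5 of 5 lines. In siSirt1 none of the 6 was called against siCtrl (3 had an unadjusted p under 0.05 in the blocked fit, and 0 were called in DESeq2) or against siLmod1 (1 had such a p, and 0 were called in DESeq2). The neuronal B55 gene Ppp2r2c was at 1.21 ± 0.285, 1.23 ± 0.3 and 1.45 ± 0.34 TPM, near the level of Ppp2r2b in siCtrl and without its low value in siLmod1.

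Striatins and their partners in the STRIPAK complex, which joins PP2A to kinases, were a list of 14, with 13 tested. With the block 2 rose and 4 fell in siLmod1 against siCtrl, with a median of -0.06 against -0.01 for all genes, of which that fit called 12.9% higher and 16.5% lower. Strn3, a striatin, fell by 0.43 (SE 0.05, edgeR adjusted p = 0.00018), and Cttnbp2nl, a cortactin-binding partner, fell by 0.32 (SE 0.06, adjusted p = 0.0042). Sike1, a STRIPAK adaptor, rose by 0.36 (SE 0.06, adjusted p = 0.0017), and Pdcd10 by 0.27 (SE 0.05, adjusted p = 0.0041). In siSirt1 against siLmod1 1 rose and 2 fell, where 7.43% of all genes rose and 8.43% fell. Cttnbp2nl rose by 0.59 (SE 0.10, edgeR adjusted p = 0.0091), and Slmap fell by 0.38 and Sike1 by 0.30 (adjusted p = 0.023 and 0.035). None of the 13 was called in siSirt1 against siCtrl with the block (5 had an unadjusted p under 0.05, and 0 were called in DESeq2 without the block).

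Genes that assemble, methylate or inhibit PP2A were a list of 16. With the block 5 rose and 3 fell in siLmod1 against siCtrl, where 12.9% of all genes rose and 16.5% fell, and the median of the 16 was 0.02. Ptpa, which activates the catalytic subunit, rose by 0.30 (SE 0.06, edgeR adjusted p = 0.004), and Ppme1, the methylesterase that strips the methyl group from its tail, rose by 0.28 (SE 0.07, adjusted p = 0.011) in 4 of 5 lines. Fam122b, of a family of PP2A inhibitors, fell by 0.70 (SE 0.14, adjusted p = 0.0037), and Bod1, an inhibitor of B56 holoenzymes at the kinetochore, fell by 0.21 (SE 0.05, adjusted p = 0.0071). Fam122b was scarce, at 3.95 ± 1.64 TPM in siCtrl and 2.47 ± 0.842 in siLmod1. The more abundant Fam122a of that family went the other way, at 58.7 ± 4.06 and 74.3 ± 8.02 TPM. Its ranges nearly met, with siCtrl up to 62.61 TPM and siLmod1 from 62.8 TPM. No share of all genes separated in TPM was taken to set beside it. In siSirt1 against siLmod1 0 rose and 2 fell, where 7.43% of all genes rose and 8.43% fell. Anp32a, a PP2A inhibitor, fell by 0.39 (SE 0.09, edgeR adjusted p = 0.022) and Ppme1 by 0.48 (SE 0.12, adjusted p = 0.031). None was called in siSirt1 against siCtrl with the block (5 had an unadjusted p under 0.05, and 0 were called in DESeq2 without the block).

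Related phosphatases were read in the same way, in blocked fits that called 29.5% of all genes in siLmod1 against siCtrl, 7.07% in siSirt1 against siCtrl and 15.9% in siSirt1 against siLmod1. By direction these were 12.9% higher and 16.5% lower, 2.72% and 4.35%, and 7.43% and 8.43%, in that order. Of 14 genes of PP4, PP6 and PP5, close relatives of PP2A, 2 rose and 1 fell in siLmod1 against siCtrl with the block, led by Ankrd52, a PP6 regulatory repeat protein, at 0.46 (SE 0.06, edgeR adjusted p = 0.00064). Against siCtrl, 1 rose in siSirt1, Ankrd28 by 0.47 (SE 0.11, adjusted p = 0.048), and in siSirt1 against siLmod1 2 fell, the catalytic gene Ppp6c by 0.39 (SE 0.10, adjusted p = 0.03) and Ppp6r1 by 0.31 (SE 0.09, adjusted p = 0.045). Of 14 genes of PP1 and calcineurin, 2 rose and 4 fell in siLmod1 against siCtrl, 1 rose and 2 fell in siSirt1 against siCtrl, and 0 rose and 5 fell in siSirt1 against siLmod1. The PP1 catalytic gene Ppp1cc fell in siLmod1 against siCtrl by 0.52 (SE 0.05, adjusted p = 7.8e-05). Another, Ppp1ca, fell in siSirt1 by 0.55 against siCtrl (SE 0.09, adjusted p = 0.013) and by 0.58 against siLmod1 (SE 0.09, adjusted p = 0.0075), the latter called without the block too (adjusted p = 0.03).

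Of 4 PP2A partners in mitosis, 2 fell in siLmod1 against siCtrl with the block, where 16.5% of all genes fell: the motor Kif4 by 0.97 (SE 0.16, edgeR adjusted p = 0.0014) and shugoshin Sgo1 by 0.71 (SE 0.17, adjusted p = 0.01). In siSirt1 against siCtrl 0 of the 4 were called with the block, and 2 had an unadjusted p under 0.05, as in siLmod1. The blocked median of the 4 was -0.63 there and -0.64 in siLmod1 against siCtrl. In siSirt1 against siCtrl Sgo1 was at -0.96, Bub1b at -0.73, Sgo2a at -0.53 and Kif4 at 0.15 (edgeR adjusted p = 0.087 to 0.75). Kif4 rose in siSirt1 against siLmod1 by 1.08 (SE 0.22, adjusted p = 0.016), where 7.43% of all genes rose. The Integrator genes Ints6 and Ints8, which bring PP2A to RNA polymerase II, had blocked differences of -0.21 to 0.06 in the 3 comparisons and adjusted p-values of 0.4 to 0.86. Without the block, none of the genes on these 7 lists was called in edgeR except Ppp1ca, and the called genes named here then had adjusted p-values of 0.08 to 0.97. DESeq2 without the block called 4 PP1 and calcineurin genes lower in siSirt1 against siLmod1 and 1 lower in siSirt1 against siCtrl. It also called 1 gene of PP4, PP6 and PP5 lower in siSirt1 against siLmod1. Over all genes DESeq2 called 922 in siSirt1 against siLmod1 and 294 in siSirt1 against siCtrl.

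The genes whose pattern over the 15 libraries was most like that of Ppp2ca, once each gene was centred within a line, were Erh, Lsm14b, Slc25a24, Capza1 and Rap2c (Pearson r = 0.98 to 0.99 on log2 CPM among 9974 genes). All 5 had their lowest mean in siLmod1, which follows from picking them by likeness to Ppp2ca. Erh was at 79.4 CPM in siCtrl, 25.1 in siLmod1 and 75.4 in siSirt1, and Capza1, an actin-capping subunit, at 95.2, 14.7 and 82.1 CPM. Ppp2r5c was the member nearest to Ppp2ca (r = 0.91) and Ppp2r5a the farthest (r = -0.79). For Ppp2r2b the nearest genes were D10Wsu102e, Snn, Chtf8, Evl and Sfswap (r = 0.98 among 9975 genes), all lowest in siLmod1 and highest in siSirt1, with Snn at 64.4, 44.2 and 102 CPM. That order likewise follows from picking them by likeness to Ppp2r2b. These coefficients describe 15 libraries that share lines and treatments, and no p is given.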

How the data were processed

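Polyadenylated RNA of 15 libraries, 5 in each group, was analysed, with groups and replicate numbers taken from the sample titles. The authors deposited raw counts per Ensembl gene and TPM values for pairs of groups, and all 15 libraries were identical in both tables that hold them. Per the submitters' processing notes, build mm10 and DESeq2 were used. Aligner, counter and annotation: not given in the sources used here. GENCODE M21 paired 48970 of 49315 gene IDs with a symbol, and the rest held 0.032% of the counts. Lengths implied by count over TPM were within 1% of the M21 exon length for 80.8% of 8106 genes.

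For each pair of groups, genes were kept by filterByExpr, scaled by TMM and tested with edgeR 4.0.16 (quasi-likelihood F test) in R 4.3.3, with 8 residual degrees of freedom and 4 with the line as a block. DESeq2 1.42.0 was an alternative, and numpy 2.4.6, scipy 1.17.1, pandas 2.3.3 and matplotlib 3.10.9 under Python 3.11.15 made the tables and plots. The scripts were tested on simulated counts. Replicate numbers are taken as primary lines, since the series design names 5 lines and libraries of the same number deviated together. After group means were removed, libraries of the same number correlated at 0.316 to 0.928 over 15358 genes (15 pairs, median 0.8) and those of different numbers at -0.564 to 0.289 (60 pairs). The weakest pairs were those of siSirt1 line 1, at 0.316 with siCtrl and 0.352 with siLmod1, little above the highest of different numbers. On the third principal component (12.1% of variance) that library stood at 33.6. Line 3 stood there at 28.1 to 38.8, and the other libraries of line 1 at 5.71 and 7.27, while siSirt1 was above siCtrl in every line. Its line is therefore uncertain, and blocked fits with siSirt1 rest on it in part. P-values speak for these lines, with 1 library for each group and line. At 21004908 to 33601761 counts a library, 3 counts equal 0.0893 to 0.143 CPM, a limit that covers counting error only.

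The members and lists were chosen with earlier results of these data known. Named genes were the 10 members, Lmod1 and Sirt1, up to 4 genes of each list with the smallest p in the blocked fit, and the 5 genes most correlated with Ppp2ca and Ppp2r2b among those with a mean of 5 CPM or more (log2 of CPM + 0.5). Further genes of the lists are named for their TPM levels only. Alternatives were DESeq2, other scalings, other filters, all 15 libraries in 1 fit, the block and leaving out libraries or lines. Library totals in place of TMM were added after the data were seen. The coding sequence of Ppp2cb is not reported here.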

Additional observations from a re-analysis of the deposited data

Results flagged for a closer look

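The siCtrl library of line 4 held Ppp2r5a at 28.2 TPM, while the other 4 siCtrl libraries held 11.45 to 14.85 TPM, a gap of 0.797 of the whole range against a critical value of 0.71 for 5 samples. Of 30 sets of 5 libraries examined (10 genes in 3 groups), 1 stood out in this way, and chance gives about 1 in 20. Line 4 was also the highest for Ppp2r5a in siLmod1 and in siSirt1.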

How the results depend on the processing

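The replicate block moved the counts most. Genes called in siLmod1 against siCtrl went from 17 to 4430 with the block (1427 over all 15 libraries, 3975 in DESeq2, 4719 with library totals, 2833, 3758, 3534, 4264 and 3314 without line 1, 2, 3, 4 or 7), in siSirt1 against siCtrl from 19 to 1054 (2530, 1940, 1238, and 332, 411, 398, 525 and 580) and in siSirt1 against siLmod1 from 229 to 2379 (4210, 3171, 2313, and 1042, 1771, 946, 1395 and 1662). Of the 8 members, the block called 5, 1 and 3 in that order (2, 3 and 5 over all 15 libraries, 5, 2 and 4 in DESeq2, 5, 1 and 2 with library totals, and 2 to 4, 0 and 1 to 2 without 1 line). Without the block, genes called were 261, 294 and 922 in DESeq2, 6, 7 and 90 with no filter, 48 and 40 (first 2 comparisons) at 5 CPM or more, 38, 150 and 554 over all 15 libraries, 7 with library totals in siSirt1 against siCtrl, and 3 to 10, 3 to 13 and 54 to 247 without 1 library. The cause was not tested. Among the 8 tested members 31 alternatives reversed a sign, and Ppp2ca did in siSirt1 against siCtrl with library totals (0.0393, and 0.0459 with the block) and without the siCtrl library of line 4 (0.0134). With library totals the tested ones were Ppp2r2a 0.0094 and Ppp2r3a 0.0145 (0.0128 with the block) in siLmod1 against siCtrl, Ppp2r5c 0.0625 (0.0653) in siSirt1 against siCtrl, and Ppp2cb 0.0213 (0.0016) and Ppp2r2d 0.0326 (0.0271) in siSirt1 against siLmod1. With no filter, Ppp2r1a was -0.0107 in siSirt1 against siCtrl. Leaving out 1 library gave Ppp2r2a -0.2281 to 0.0993 and Ppp2r3a -0.0986 to 0.0209 in siLmod1 against siCtrl, Ppp2r1a -0.0092 to 0.0516 (-0.0072 to 0.0296 by line with the block), Ppp2r1b -0.1138 to 0.3314, Ppp2r5a -0.4722 to 0.0428 and Ppp2r5c -0.0967 to 0.0136 in siSirt1 against siCtrl, and Ppp2cb -0.1431 to 0.0213 (-0.1719 to 0.0012 by line) and Ppp2r2d -0.1173 to 0.0142 in siSirt1 against siLmod1. Depth limits Ppp2r2b most, with 10 to 157 counts in a library.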
